A study of Homo sapiens with 24 samples.

Results

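The genes described here are YAP1, its DNA-binding partner TEAD1 and 8 genes known as their targets, CCN1, CCN2, ANKRD1, AMOTL2, LATS2, AJUBA, AXL and CRIM1. They were chosen by name with earlier results of these data known, so counts of calls among them are descriptions. All 10 were found among the 59609 gene symbols in the count table. Their RNA was measured by 3′ RNA-seq, which reads the end of each transcript next to its poly(A) tail, in MDA-MB-231 cells and in MDA-MB-453 cells, both lines from breast cancer that lack the oestrogen receptor (ER) and both wild-type in genotype per the labels. Each line received 500 nM abemaciclib, 5 nM fulvestrant, both drugs together at these doses (the combination) or DMSO alone, for 5 days, with 3 biological replicates per group and 24 libraries in all. Abemaciclib inhibits the cell-cycle kinases CDK4 and CDK6, and fulvestrant binds the oestrogen receptor and promotes its degradation. The paper set these ER-negative lines beside ER-positive ones. It reported that abemaciclib induced early oestrogen response genes much less in the ER-negative lines.

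YAP1 and its paralogue TAZ, encoded by WWTR1, are co-activators with no DNA-binding domain of their own. They enter the nucleus and act on DNA through the TEAD proteins. The Hippo kinases hold them back: MST1 and MST2 (encoded by STK4 and STK3), helped by NF2, activate LATS1 and LATS2, which phosphorylate YAP1 and TAZ and keep them in the cytoplasm. This control works on the protein, so the RNA level of YAP1 does not measure its activity, and the targets are commonly read in its place. Several targets, LATS2 and AMOTL2 among them, feed back on the pathway. In breast cancer, high levels of many of these targets are known from basal and mesenchymal cells.

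The libraries held 2873558 to 4158762 counts each, and levels are given as CPM, a gene's counts divided by the library total and multiplied by 1000000. A gene was called when its Benjamini-Hochberg adjusted p from edgeR's quasi-likelihood test, taken over all genes tested, was below 0.05. VIM and CD44, markers of mesenchymal cells, were at 1539 and 259 CPM in MDA-MB-231 given DMSO and had 0 counts in MDA-MB-453 given DMSO. The luminal markers FOXA1 and ERBB2 were at 191 and 238 CPM in MDA-MB-453 and at 3.53 and 15.9 CPM in MDA-MB-231, while the keratins KRT8 and KRT18 were present in both lines. ESR1, the oestrogen receptor gene, had 0 counts in both DMSO groups. The fibroblast genes DCN and COL1A2 had 0 counts in the DMSO and abemaciclib groups of both lines, and COL1A1 stood at 5.67 CPM in the DMSO group of MDA-MB-231 and at 39.4 CPM in that of MDA-MB-453. The leukocyte gene PTPRC had at most 1 count in any of these groups. The share of counts on mitochondrial genes rose under abemaciclib, with 8.83% against 12.2% for MDA-MB-231 and 15.2% against 23.8% for MDA-MB-453, and all calls on the members were repeated without those genes. A library was taken to stand apart when its counts differed from both replicates of its group over 1.5 times more than those differed from each other, a rule chosen after seeing the data. In chi-square per degree of freedom, these were replicate 1 of fulvestrant in MDA-MB-231 (8.65 and 7.81, the other pair 2.96), replicate 1 of abemaciclib in MDA-MB-453 (7.67 and 8.18, the other pair 3.76) and replicate 3 of fulvestrant in MDA-MB-453 (7.31 and 8.39, the other pair 2.97). Without the first, LATS2 lost its call for the combination against fulvestrant in MDA-MB-231 (-0.54, adjusted p = 0.0834, edgeR) and ANKRD1 gained one under abemaciclib (-0.26, adjusted p = 0.0130, edgeR). Without replicate 1 of abemaciclib the rise of CCN1 in MDA-MB-453 was 1.30 (adjusted p = 7.31e-11, edgeR), against 1.35 with it.

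TEAD proteins bind DNA at the letters GGAATG, or CATTCC on the other strand. The 250 bases before the start of CCN2 and of ANKRD1 are shown because both hold these letters more than once, because both genes were near or at 0 counts in MDA-MB-453, and because CCN2 fell most of all members under abemaciclib in MDA-MB-231 while ANKRD1 did not pass the test there. Capitals mark GGAATG. The sequences are those of RefSeq on GRCh38.p14, read 5′ to 3′ on the minus strand, where both genes lie, at chr6:131951373-131951622 for CCN2 and chr10:90921088-90921337 for ANKRD1.
CCN2: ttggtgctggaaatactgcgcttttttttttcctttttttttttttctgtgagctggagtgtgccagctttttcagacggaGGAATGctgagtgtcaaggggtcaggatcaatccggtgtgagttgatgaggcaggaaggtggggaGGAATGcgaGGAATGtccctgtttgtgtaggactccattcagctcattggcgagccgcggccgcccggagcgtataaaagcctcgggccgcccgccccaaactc
ANKRD1: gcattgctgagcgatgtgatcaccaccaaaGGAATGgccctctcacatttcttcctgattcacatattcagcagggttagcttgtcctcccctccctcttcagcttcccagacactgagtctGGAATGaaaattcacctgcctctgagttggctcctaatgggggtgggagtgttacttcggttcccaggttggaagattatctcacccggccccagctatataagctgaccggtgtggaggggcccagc
CCN2 had 3 matches, which began 169, 104 and 95 bases before the start. ANKRD1 had 2, which began 220 and 128 bases before it. It also held the letters TGATTCA, 195 to 189 bases before the start. They fit the search pattern TGANTCA, in which N is any base, a looser pattern than the AP-1 site itself. These TGANTCA letters do not overlap the GGAATG matches. Of 35116 promoters of the same length, 11.9% held GGAATG or CATTCC at least once, 0.94% held them at least 2 times, and 6.57% held TGANTCA. The reference table matched 7 of the 10 members. TEAD1, CCN1 and CRIM1 were not in it, so the bases before them were not searched. YAP1 had 1 match, 162 to 157 bases before its start. AMOTL2, AJUBA and AXL, each listed with 2 starts, had no match before the first and 1 match before the second, and LATS2 had none. The 10-letter CArG box, bound by SRF, was found before none of the 7 matched members. A match describes the letters and does not show that a protein was bound there.

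**Figure D1:**
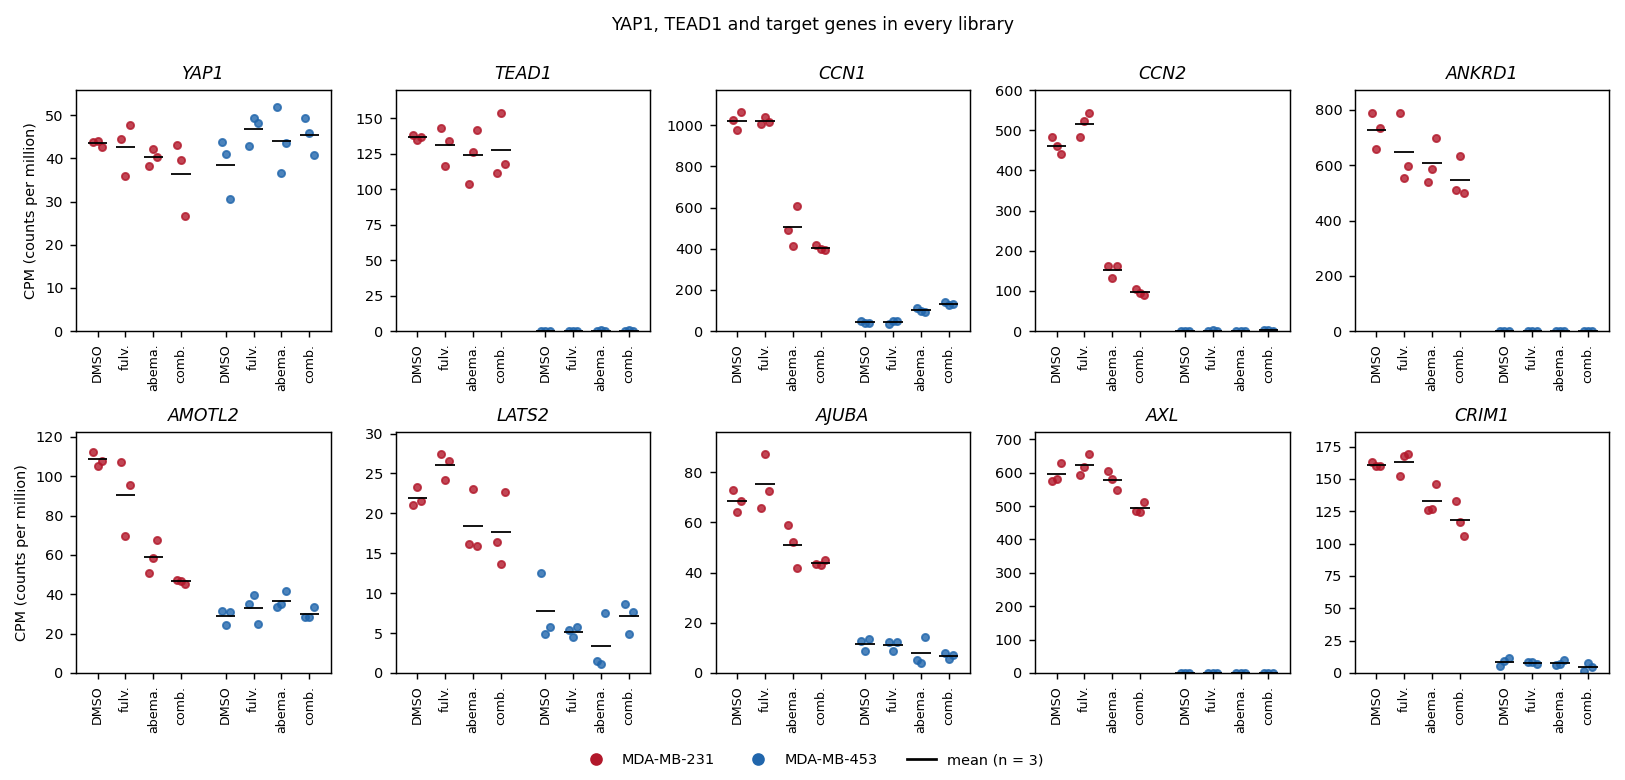
Level of each member in CPM in all 24 libraries, with MDA-MB-231 in red, MDA-MB-453 in blue, a black line for the mean of 3 libraries and an axis of its own for each gene, starting at 0. CCN1, CCN2 and AMOTL2 are lower in the abemaciclib and combination libraries of MDA-MB-231 than in its DMSO libraries, CCN1 is higher in those of MDA-MB-453, and TEAD1, CCN2, ANKRD1 and AXL lie at or near 0 in MDA-MB-453.

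The first comparison was between the untreated lines. YAP1 was present in both at similar levels, while TEAD1 and all 8 targets were lower in MDA-MB-453. Of the 10 members, 9 were called lower and none higher, but TEAD1, CCN2, ANKRD1 and AXL passed the low-count filter through MDA-MB-231 alone, so they had to differ. The lines differed widely: 69.8% of 12750 genes tested were called, with 35.6% of all those tested lower in MDA-MB-453, so a call by itself was common here.

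YAP1 (chr11:102110447-102233424, plus strand) had 43.9, 44.1 and 42.7 CPM in the DMSO libraries of MDA-MB-231. In MDA-MB-453 it had 43.8, 41.1 and 30.5 CPM. The ranges overlapped, and the log2 difference was -0.12 with a 95% interval of -0.45 to 0.22 (adjusted p = 0.546, edgeR). Over all 24 libraries YAP1 stayed between 26.6 and 51.9 CPM, and each of the 8 groups overlapped its neighbour in the order of means, from 46.8 CPM under fulvestrant in MDA-MB-453 down to 36.5 CPM under the combination in MDA-MB-231. Of its exon bases, 639 overlap genes on the other strand.

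TEAD1 (chr11:12674421-12944737, plus strand) had 138, 135 and 137 CPM in MDA-MB-231 given DMSO, a total of 1367 counts. The same group of MDA-MB-453 held 1 count, which makes a ratio of 1460 (95% counting interval 262 to 57700). TEAD1 was at 0 in 9 of the 12 MDA-MB-453 libraries, and the other 3 held 6 counts in all. The other TEAD genes were present in MDA-MB-453 (TEAD2 56.5 ± 4.77, TEAD3 53.7 ± 6.18 and TEAD4 38.6 ± 1.55 CPM, mean ± SD, n = 3). TEAD2 and TEAD3 were higher there than in MDA-MB-231 by 0.77 and 1.22 on the log2 scale (adjusted p = 0.000198 and 5.30e-08, edgeR), and for TEAD4 the difference was 0.17 (adjusted p = 0.488, edgeR).

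CCN1 and CCN2 encode secreted proteins that bind integrins and the matrix. CCN1 (chr1:85580761-85584589, plus strand) had 1025, 978 and 1063 CPM in MDA-MB-231 given DMSO. In MDA-MB-453 it had 47.1, 38.6 and 40.7 CPM, lower by 4.54 on the log2 scale with an SE of 0.12 (adjusted p = 3.04e-34, edgeR). CCN2 (chr6:131948176-131951372, minus strand), whose promoter with 3 GGAATG matches is given above, had 484, 460 and 441 CPM in MDA-MB-231, from 4617 counts. Its MDA-MB-453 libraries given DMSO held 5 counts, a ratio of 986 (95% counting interval 422 to 3040). All 12 MDA-MB-453 libraries together held 37 CCN2 counts, and the highest of them reached 2.78 CPM. Of its exon bases, 278 overlap LINC01013 on the other strand, and with the strand of counting not stated, reads of the pair cannot be told apart.

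ANKRD1, an ankyrin repeat protein that can enter the nucleus, and AXL, a receptor tyrosine kinase, had no counts in MDA-MB-453. ANKRD1 (chr10:90912096-90921087, minus strand) had 790, 660 and 736 CPM in MDA-MB-231 given DMSO. AXL (chr19:41219223-41261766, plus strand) had 576, 581 and 631 CPM. Both had 0 counts in each of the 12 MDA-MB-453 libraries, which allows up to 0.0702 CPM over those libraries. Set against a floor of 3 counts over the DMSO group, ANKRD1 was at least 2590-fold and AXL at least 2120-fold higher in MDA-MB-231 than in MDA-MB-453 given DMSO. Counting intervals and floors cover counting error alone. In these bulk samples, fewer cells with a transcript and less of it per cell cannot be told apart.

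The remaining targets were present in both lines. CRIM1 (chr2:36355778-36551135, plus strand), which encodes a transmembrane protein that binds BMP ligands, stood at 161 ± 1.98 CPM in MDA-MB-231 against 8.83 ± 3.18 CPM in MDA-MB-453 (mean ± SD, n = 3), lower by 4.11 on the log2 scale. AJUBA (chr14:22971177-22982551, minus strand), a LIM-domain scaffold that binds LATS kinases, was lower by 2.48. AMOTL2 (chr3:134355347-134375479, minus strand), which encodes an angiomotin that binds YAP1, was lower by 1.84. LATS2 (chr13:20973036-21061586, minus strand), the kinase that phosphorylates YAP1, was lower by 1.44 on the log2 scale, the smallest estimate among the 8 targets (adjusted p = 0.000242, edgeR). No DMSO library of MDA-MB-453 reached the lowest DMSO library of MDA-MB-231 for any of the 8 targets. For CCN2, ANKRD1 and AXL this had to be so, since they passed the low-count filter through MDA-MB-231 alone. The share of all genes apart in this way was not computed, so the count is a description. Exon bases overlap genes on the other strand for AXL (67) and CRIM1 (177), and a gene on the same strand for AJUBA (50).

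Of the upstream genes listed as the Hippo kinase arm, 5 were called higher in MDA-MB-453 and 11 lower, of 19 tested. Over all genes 69.8% were called, 34.3% higher and 35.6% lower. NF2 was among the genes called higher. It stood at 3.28 ± 0.995 CPM in MDA-MB-231 against 71.0 ± 2.02 CPM in MDA-MB-453 (log2 difference 4.48, SE 0.26, adjusted p = 2.41e-20, edgeR). WWTR1 was lower in MDA-MB-453 by 0.76 on the log2 scale (adjusted p = 0.000335, edgeR), STK4 by 1.26 (adjusted p = 4.02e-11, edgeR) and LATS1 by 0.61 (adjusted p = 0.0428, edgeR). LATS1 lost its call under 9 of 30 alternatives. For STK3 the difference was 0.51 (adjusted p = 0.0947, edgeR).

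Abemaciclib against DMSO was compared next, first in MDA-MB-231. CCN2, CCN1 and AMOTL2 fell there by 1.84-fold to 3.03-fold, and AJUBA and CRIM1 by less. The calls were 5 of 10 members lower and none higher, where 33.7% of 11314 genes were called, 16.9% lower and 16.9% higher. The median log2 change of the members was -0.27 and that of all genes was -0.00. YAP1 and TEAD1 did not pass the test.

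CCN2 went from 484, 460 and 441 CPM under DMSO to 163, 132 and 162 CPM under abemaciclib. The groups were far apart, and the change was -1.60 on the log2 scale with an SE of 0.10, a 3.03-fold decrease (adjusted p = 1.44e-16, edgeR). CCN1 went from 1025, 978 and 1063 CPM to 491, 414 and 606 CPM. Every treated library lay below every control, and the change was -1.02 with an SE of 0.09, a 2.03-fold decrease (adjusted p = 1.14e-11, edgeR). AMOTL2 went from 112, 105 and 108 CPM to 50.8, 58.6 and 67.4 CPM, again without overlap (log2 fold change -0.88, SE 0.14, adjusted p = 3.00e-06, edgeR). Of the AMOTL2 exon bases, 187 overlap the pseudogene RPL39P5 on the same strand.

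The smaller changes were less firm. AJUBA had 72.9, 64.0 and 68.5 CPM under DMSO and 58.8, 52.3 and 41.9 CPM under abemaciclib (log2 fold change -0.42, SE 0.15, adjusted p = 0.0238, edgeR). The groups did not overlap, but without replicate 3 of abemaciclib the adjusted p was 0.165, and without replicate 1 or 3 of DMSO it was 0.0886 or 0.0580. CRIM1 had 163, 160 and 160 CPM under DMSO and 126, 126 and 146 CPM under abemaciclib (log2 fold change -0.28, SE 0.11, adjusted p = 0.0481, edgeR). Its groups were apart too, and its call was lost under 15 of 19 alternatives, with adjusted p up to 0.418. ANKRD1 had 790, 660 and 736 CPM under DMSO and 541, 586 and 697 CPM under abemaciclib. These ranges overlapped (log2 fold change -0.26, SE 0.11, adjusted p = 0.0533, edgeR), and 7 of 19 alternatives called it lower.

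The other members were not called. The log2 fold change was -0.26 for LATS2 (95% interval -0.71 to 0.19), -0.14 for TEAD1 (-0.38 to 0.10), -0.11 for YAP1 (-0.45 to 0.23) and -0.04 for AXL (-0.21 to 0.13). The whole AXL interval lay closer to 0 than the estimate of any called member. It overlapped the intervals of CRIM1 (-0.49 to -0.06) and AJUBA (-0.71 to -0.13) but not those of CCN1, CCN2 and AMOTL2. Differences between genes were not tested.

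MKI67, a marker of dividing cells, went from 516 ± 27.2 to 189 ± 15.6 CPM in the same libraries (mean ± SD, n = 3). Across the 12 MDA-MB-231 libraries, the genes whose log2(CPM + 0.5) was most like that of CCN2, by Pearson's r among 8030 genes, were RRM2, PHF19 and HNRNPA2B1 (r = 0.99 each), and for CCN1 they were HNRNPH3, NCAPG and ARHGAP11A (r = 0.99 each). RRM2, a ribonucleotide reductase subunit, went from 461 ± 18.7 CPM under DMSO to 138 ± 7.10 under abemaciclib and 92.1 ± 3.49 under the combination. CCN1 and CCN2 had r = 0.99 with each other. CCN2 had r = 0.91 with AMOTL2 and with AJUBA, 0.93 with CRIM1, 0.80 with AXL and 0.67 with LATS2. With ANKRD1, YAP1 and TEAD1 it had 0.57, 0.50 and 0.25. Many genes were more like CCN2 than these members were. In rank among the 8030, CRIM1 was at 421, AMOTL2 at 553, AJUBA at 557, AXL at 1341 and LATS2 at 2022. The 12 points fall into treated and untreated groups and share their libraries, so these values describe likeness alone. Whether the lower MKI67 had a part in the fall of CCN1 and CCN2 was not tested.

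In MDA-MB-453, abemaciclib gave 1 call among the members, and it was an increase. CCN1 rose 2.55-fold, while no target was called lower. Of the 10 members, 6 passed the low-count filter (YAP1, CCN1, AMOTL2, LATS2, AJUBA and CRIM1), and 36.0% of 11080 genes were called, 16.6% higher and 19.4% lower. The median log2 change of the 5 targets tested was -0.16, and that of all genes was -0.00. CCN1 had 47.1, 38.6 and 40.7 CPM under DMSO and 112, 97.2 and 94.7 CPM under abemaciclib. The groups were well apart, with a log2 fold change of 1.35 and an SE of 0.13 (adjusted p = 1.24e-11, edgeR). Even so, the treated level of 101 ± 9.42 CPM lay below the 504 ± 96.9 CPM of MDA-MB-231 under the same drug (mean ± SD, n = 3). MKI67 fell from 277 ± 18.2 to 1.63 ± 0.743 CPM in these MDA-MB-453 libraries, in which CCN1 rose.

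AMOTL2 had 31.6, 24.4 and 31.0 CPM under DMSO and 33.7, 35.03 and 41.5 CPM under abemaciclib in MDA-MB-453. All treated libraries were above all controls, with a log2 fold change of 0.42 that did not pass the test (95% interval 0.06 to 0.79, adjusted p = 0.0743, edgeR). LATS2 had 12.6, 4.93 and 5.82 CPM under DMSO and 1.52, 1.10 and 7.52 CPM under abemaciclib. The third treated library was above 2 of the 3 controls, and the log2 value of -1.13 was not called (adjusted p = 0.0775, edgeR). Without that library, replicate 3, it was -2.47 and called (adjusted p = 0.000981, edgeR). Without replicate 1, the treated library that stood apart by the rule above, it was -0.75 (adjusted p = 0.291, edgeR). Replicate 3 held AJUBA at 14.1 CPM, where the other treated libraries had 5.31 and 4.11 CPM. With all libraries AJUBA had -0.51 (adjusted p = 0.289, edgeR). Without replicate 3 it had -1.25 (adjusted p = 0.0117, edgeR), and without replicate 1 it had -0.26 (adjusted p = 0.644, edgeR). YAP1 had 0.28 (adjusted p = 0.185, edgeR) and CRIM1 had -0.16 (adjusted p = 0.800, edgeR).

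**Figure D2:**
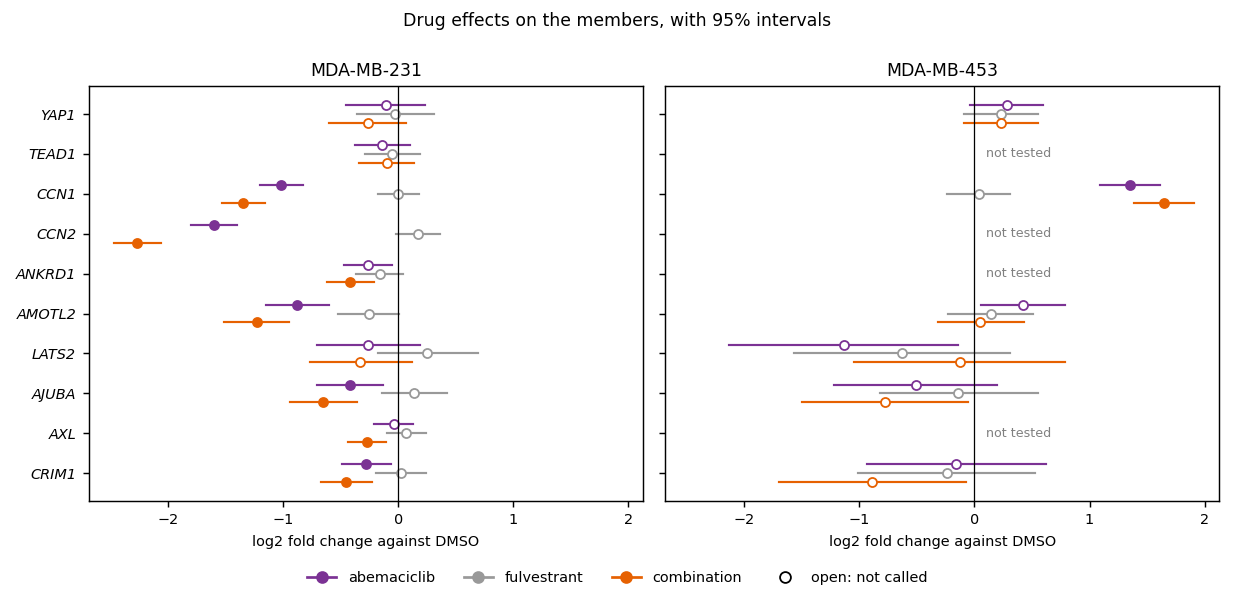
Log2 fold change of each member against DMSO in both lines, with abemaciclib in purple, fulvestrant in grey and the combination in orange. Bars are 95% intervals, filled points passed the test and open points did not, and 4 members are not tested in MDA-MB-453. CCN1 stands left of 0 in MDA-MB-231 (-1.02 and -1.35) and right of 0 in MDA-MB-453 (1.35 and 1.65), and no grey point is filled.

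The difference between the lines was tested as the MDA-MB-453 effect less the MDA-MB-231 effect. CCN1 and AMOTL2 were the members called, where 20.7% of 12750 genes were called, 7.72% in the direction of these members. For CCN1 the abemaciclib effects differed by 2.38 on the log2 scale (SE 0.16, adjusted p = 3.71e-17, edgeR), and for AMOTL2 by 1.31 (SE 0.23, adjusted p = 2.39e-05, edgeR). AMOTL2 passed the test within MDA-MB-231, where it fell, but not within MDA-MB-453. LATS2, AJUBA, CRIM1 and YAP1 had differences of -0.88, -0.09, 0.11 and 0.40, none called. LATS2 was called without replicate 3 of abemaciclib in MDA-MB-453 (-2.27, adjusted p = 0.00279, edgeR). Without replicate 1 of that group it was not called (-0.56, adjusted p = 0.545, edgeR).

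**Figure D3:**
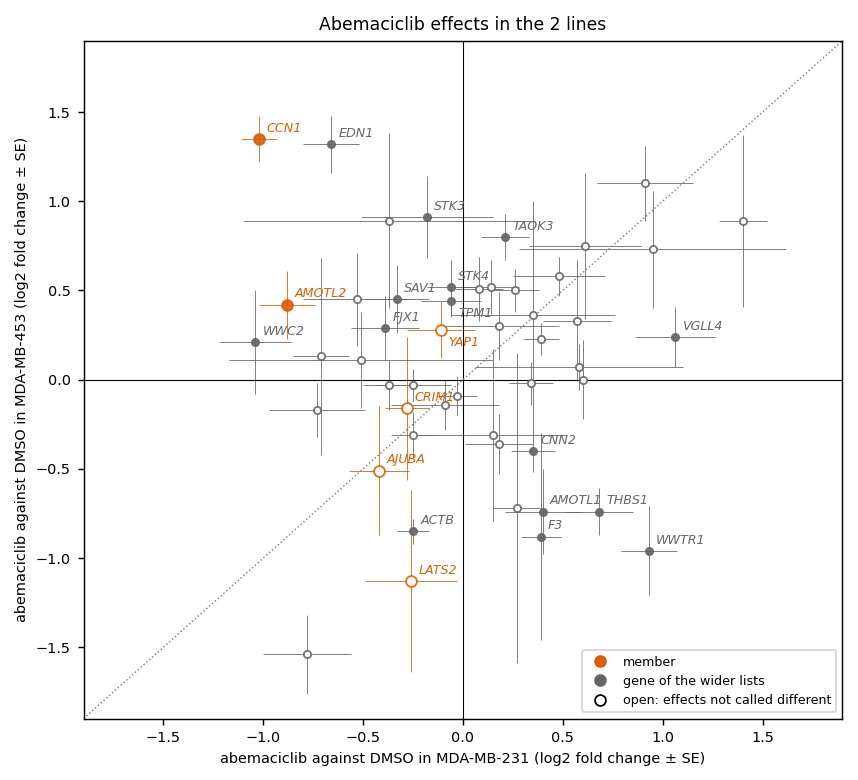
Log2 fold change under abemaciclib in MDA-MB-231 on the x axis and in MDA-MB-453 on the y axis, for members in orange and genes of 4 wider lists in grey that were tested in both lines, with SE bars. Filled points had effects called different between the lines, the dotted line marks equal effects, and CCN1 (-1.02, 1.35) and WWTR1 (0.93, -0.96) lie in opposite corners.

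No member was called for fulvestrant alone. In MDA-MB-231 no gene of 11314 was called (0%) by edgeR or by DESeq2, and 799 had an unadjusted p below 0.05 with edgeR. No member did. Without replicate 1 of fulvestrant 205 genes were called (1.77%), and with no low-count filter 14. No member was called for fulvestrant in either line under any alternative. Within MDA-MB-453 the calls were 1.41% of 11080 genes, and none was a member. The log2 values of the members ran from -0.25 (AMOTL2) to 0.25 (LATS2) in MDA-MB-231. In MDA-MB-453 they ran from -0.63 (LATS2) to 0.23 (YAP1), with a wide interval for LATS2, -1.57 to 0.31. CCN2 held 483, 524 and 544 CPM under fulvestrant in MDA-MB-231, where one library was below the highest control of 484 CPM.

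With the combination in MDA-MB-231, 7 of 10 members were lower than under DMSO and none higher, where 35.4% of genes were called, 18.3% lower. The median log2 change of the 8 targets was -0.55, and that of all genes was -0.01. CCN2 reached 106, 94.3 and 88.9 CPM, all below the lowest abemaciclib library at 132 CPM. Its change from DMSO was -2.27 on the log2 scale (SE 0.10, a 4.81-fold decrease, adjusted p = 3.30e-21, edgeR). CCN1 was at 416, 397 and 396 CPM (log2 fold change -1.35, SE 0.09, adjusted p = 3.76e-15, edgeR). AMOTL2 was at 47.2, 46.9 and 45.4 CPM, closely grouped (log2 fold change -1.23, adjusted p = 2.93e-09, edgeR). AJUBA fell by 0.65 (adjusted p = 0.000571, edgeR), CRIM1 fell by 0.45 (adjusted p = 0.00120, edgeR) and ANKRD1 fell by 0.42 (adjusted p = 0.00172, edgeR), all on the log2 scale. AXL had 487, 482 and 514 CPM against 576, 581 and 631 CPM under DMSO. Its groups did not overlap (log2 fold change -0.27, SE 0.09, adjusted p = 0.0103, edgeR), but without replicate 3 of DMSO the adjusted p was 0.101. YAP1, LATS2 and TEAD1 had -0.26, -0.33 and -0.10 and were not called. The counts of all 10 members together went from 3210 to 3425 CPM under DMSO to 2143 to 2465 CPM under abemaciclib and 1862 to 2020 CPM under the combination.

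Set against abemaciclib alone, the combination gave few calls in MDA-MB-231, 3 of 11314 genes (0.0265%), and CCN2 was one of them. It fell by a further 0.67 on the log2 scale (SE 0.11, adjusted p = 0.00138, edgeR), a 1.59-fold decrease. The call was lost without replicate 1 of abemaciclib (-0.61, adjusted p = 0.0584, edgeR). The interaction, which is the combination effect minus the sum of both single effects, was called for CCN2 as well, at -0.84 (SE 0.14, adjusted p = 0.00442, edgeR), and for 0.124% of all genes. Leaving out any single library kept the CCN2 interaction called. No other member was called in either comparison by edgeR. Against fulvestrant alone, 7 of 10 members were lower under the combination, where 36.1% of genes were called, 18.5% lower. They were CCN2 (-2.44), CCN1 (-1.35), AMOTL2 (-0.97), AJUBA (-0.79), LATS2 (-0.58), CRIM1 (-0.47) and AXL (-0.34). The LATS2 call (adjusted p = 0.0389, edgeR) was lost under 7 of 19 alternatives.

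In MDA-MB-453 the combination raised CCN1 to 142, 128 and 130 CPM, a log2 fold change of 1.65 from DMSO with an SE of 0.13 (3.14-fold, adjusted p = 1.89e-14, edgeR). It was the only member called against DMSO, where 37.6% of genes were called, 17.6% higher, and the only member called against fulvestrant (1.61, adjusted p = 2.81e-14, edgeR), where 36.6% were called, 17.2% higher. AJUBA and CRIM1 had -0.78 and -0.89 and were not called (adjusted p = 0.0922 and 0.0901, edgeR). CRIM1 was called without replicate 1 of DMSO (-1.14, adjusted p = 0.0438, edgeR) and without replicate 2 of the combination (-1.43, adjusted p = 0.0215, edgeR). Against abemaciclib alone 2.46% of genes were called, and in the interaction 3.80%, with no member among them in either. All 3 combination libraries had more CCN1 than all 3 abemaciclib libraries, at 95% interval 0.06 to 0.54 for the log2 difference, which did not pass the test. The CCN2 counts of the 3 libraries summed to 5 under DMSO, 2 under abemaciclib, 13 under fulvestrant and 17 under the combination, below the low-count filter within the line. Without that filter CCN2 was not called there, with its smallest p for the combination against abemaciclib (0.0313, adjusted p = 0.401, edgeR).

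For the combination, CCN1 and AMOTL2 differed between the lines, where 17.7% of genes were called, 6.16% in their direction. The differences were 2.99 for CCN1 (SE 0.15, adjusted p = 5.65e-21, edgeR) and 1.27 for AMOTL2 (SE 0.24, adjusted p = 5.39e-05, edgeR). The model also called CCN2, at 4.01, but CCN2 passed the low-count filter through MDA-MB-231 alone and its MDA-MB-453 side rests on 17 against 5 counts, so the value is a description.

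The other genes of the pathway were read from 4 lists under abemaciclib, also drawn up with earlier results of these data known. Their counts stand beside all genes tested, of which 16.9% were called higher and 16.9% lower in MDA-MB-231, against 16.6% and 19.4% in MDA-MB-453. WWTR1, which encodes TAZ, moved in opposite directions in the lines. It rose in MDA-MB-231 from 46.7 ± 5.37 to 89.0 ± 14.3 CPM (log2 fold change 0.93, SE 0.14, adjusted p = 1.44e-06, edgeR). It fell in MDA-MB-453 from 26.5 ± 5.60 to 12.8 ± 3.25 CPM (log2 fold change -0.96, SE 0.25, adjusted p = 0.00187, edgeR). The effects differed by -1.88 (SE 0.27, adjusted p = 4.18e-07, edgeR), and under the combination by -2.17 (adjusted p = 2.25e-08, edgeR). In each line the direction of WWTR1 was thus opposite to that of CCN1.

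**Figure D4:**
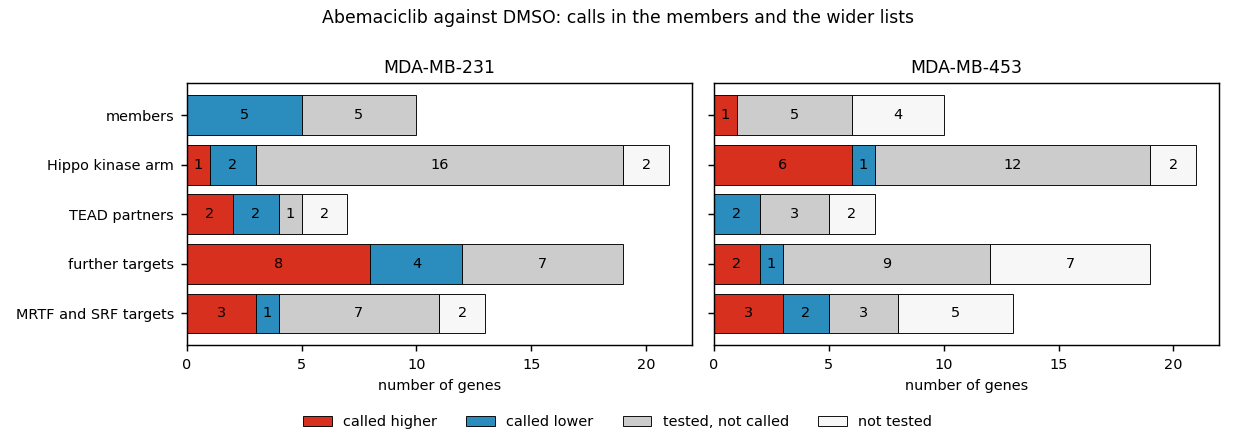
Number of genes called higher (red), called lower (blue), tested but not called (grey) and not tested (white) under abemaciclib against DMSO, for the members and 4 wider lists in both lines. The members are called lower 5 times in MDA-MB-231 and higher 1 time in MDA-MB-453, while the further targets are called higher 8 times and lower 4 times in MDA-MB-231.

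TEAD partners, a list of 7 genes, had 2 called higher and 2 called lower of 5 tested in MDA-MB-231, and 2 called lower in MDA-MB-453 with none higher. With 33.7% and 36.0% of all genes called, a list this short is not set apart by these counts. VGLL4, which competes with YAP1 for TEAD proteins, rose in MDA-MB-231 (log2 fold change 1.06, adjusted p = 3.71e-05, edgeR). TEAD4 fell in both lines, by 0.78 in MDA-MB-231 and by 1.54 in MDA-MB-453 on the log2 scale. TEAD3 fell in MDA-MB-231 (-0.73, adjusted p = 0.0141, edgeR), a call lost without replicate 1 of abemaciclib (adjusted p = 0.0591, edgeR). TEAD2 was not called in either line, at 0.18 and -0.36. The median of the list was 0.18 and -0.36, in the same order.

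The Hippo kinase arm, a list of 21 genes, had 1 called higher and 2 called lower of 19 tested in MDA-MB-231, where 33.7% of all genes were called. The atypical cadherin FAT1 rose (0.57), and the adaptors WWC2 (-1.04) and FRMD6 (-0.71) fell. In MDA-MB-453 6 were called higher and 1 lower of 19, beside 36.0% called over all genes. STK3 (0.91), the kinase TAOK3 (0.80), the scaffold WWC1 (0.58) and STK4 (0.52) were among those that rose, and the angiomotin AMOTL1 (-0.74) fell. The list's median was 0.15 and 0.45. The STK4 call was lost without replicate 2 of DMSO in MDA-MB-453 (0.36, adjusted p = 0.0953, edgeR), and that of AMOTL1 without the same library or without replicate 3 of abemaciclib (adjusted p = 0.0609 and 0.0724, edgeR). LATS1 had -0.53 and 0.45 and NF2 had 0.58 and 0.07, first in MDA-MB-231 and then in MDA-MB-453, none called.

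The further targets, 19 genes also known to respond to YAP and TEAD, did not follow the members in MDA-MB-231, where 8 were called higher and 4 lower of 19 tested, with a median of 0.23, beside 33.7% called over all genes. MYOF, a membrane repair protein, rose from 62.4 ± 5.87 to 164 ± 12.7 CPM (log2 fold change 1.40, adjusted p = 2.22e-12, edgeR), and TGFB2 (1.04) and GADD45A (0.91) rose with it. Among those that fell were CCDC80 (-0.94) and EDN1 (-0.66). In MDA-MB-453 2 were called higher and 1 lower of 12 tested, with a median of 0.20, beside 36.0% called over all genes. EDN1, which encodes the peptide endothelin-1, rose there from 21.9 ± 1.26 to 51.5 ± 1.77 CPM (log2 fold change 1.32, adjusted p = 5.20e-09, edgeR), and GADD45A rose by 1.10. THBS1, the matrix protein thrombospondin-1, fell from 121 ± 3.00 to 68.0 ± 11.1 CPM (log2 fold change -0.74, adjusted p = 5.77e-06, edgeR).

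The MRTF and SRF targets, 13 genes of the actin and contractile machinery under a programme known to overlap that of YAP, had 3 called higher and 1 lower of 11 tested in MDA-MB-231 (median 0.08), near the 33.7% called over all genes. MYL9 (0.78), FLNA (0.39) and CNN2 (0.35) rose and ACTB fell by 0.25. Without replicate 2 of DMSO the calls of ACTB and CNN2 were lost (adjusted p = 0.0843 and 0.0617, edgeR). In MDA-MB-453 3 were called higher and 2 lower of 8 tested (median 0.07), beside 36.0% called over all genes. VCL (0.51), TPM1 (0.44) and FLNA (0.23) were higher there and ACTB (-0.85) and CNN2 (-0.40) lower. The FLNA call in MDA-MB-453 (adjusted p = 0.0404, edgeR) was lost under 7 of 19 alternatives, DESeq2 among them (adjusted p = 0.0502), and its value was 0.06 without replicate 2 of abemaciclib (adjusted p = 0.643, edgeR). That of VCL was lost under 4 of 19, with adjusted p up to 0.114.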

How the data were processed

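Wild-type cells of the MDA-MB-231 line and the MDA-MB-453 line were profiled in 24 QuantSeq 3′ libraries. The authors aligned reads to hg38 with STAR and counted them per gene with featureCounts, and the deposited values are raw counts per gene symbol. Strand, multimapping, duplicates and molecular identifiers are not given in the sources used here. The 1 line naming no gene held 0 counts. Replicate pairs differed beyond sampling noise (chi-square per degree of freedom 2.64 to 8.65 over 24 pairs). The 10 members and the lists were chosen with earlier results of these data known.

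The tests used edgeR 4.0.16 in R 4.3.3 (filterByExpr, TMM, quasi-likelihood test, 2-sided), within each line for drug contrasts and over 24 libraries for contrasts between lines. CPM used the library total without TMM. The scripts were tested on simulated data. Same-numbered libraries did not deviate together (r from -0.09 to 0.04 in MDA-MB-231, 0 of 18 pairs above 0.1 in each line). All members were named, with WWTR1, TEAD2 to TEAD4, LATS1, STK3, STK4 and NF2, and per list up to 3 called genes in each direction, of at least 10 CPM, with the highest and the lowest log2 values under abemaciclib in each line. Some items that this rule or the marker list would name are not reported here. Positions come from GENCODE on GRCh38 and promoters from RefSeq. Alternatives were DESeq2 1.42.0, DESeq2 size factors, no low-count filter, no mitochondrial genes, a minimum change of 1.2-fold, a replicate block, the compared groups alone, and each library left out.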

Additional observations from a re-analysis of the deposited data

Results flagged for a closer look

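Effects that differed between the lines were picked out by the test of the difference itself (effect in MDA-MB-453 minus effect in MDA-MB-231, edgeR over 24 libraries, log2 scale). No test of a single outlying value was run on these groups of 3 libraries, and each library was left out in turn. Under abemaciclib the members CCN1 (2.38) and AMOTL2 (1.31) differed. Under the combination they were CCN1 (2.99) and AMOTL2 (1.27). The model also called CCN2 (4.01), which passed the low-count filter through MDA-MB-231 alone and rests on 17 against 5 counts in MDA-MB-453, so no difference is read from it. WWTR1 differed by -1.88 under abemaciclib and by -2.17 under the combination, and was called in opposite directions in the lines.

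Among the other named genes under abemaciclib, EDN1 (1.99), WWC2 (1.26), STK3 (1.11), TAOK3 (0.60), STK4 (0.59) and TPM1 (0.51) had the larger value in MDA-MB-453. THBS1 (-1.42), AMOTL1 (-1.13), VGLL4 (-0.81), CNN2 (-0.74) and ACTB (-0.59) had the smaller value there. EDN1, THBS1 and CNN2, like WWTR1, were called in opposite directions in the lines. The differences of STK3, STK4, TAOK3 and TPM1 were lost under 13, 14, 7 and 18 of 30 alternatives, and that of VGLL4 without replicate 2 of abemaciclib in MDA-MB-231 (adjusted p = 0.0589, edgeR).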

How the results depend on the processing

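There were 35 member values called, leaving out TEAD1, ANKRD1 and AXL between the untreated lines because MDA-MB-453 was at or under the floor. Of these, 26 kept their call under every alternative run, among them each call of CCN1 and the CCN2 and AMOTL2 calls against DMSO. The 35 also hold CCN2 between the untreated lines and in the combination difference between lines. CCN2 passed the low-count filter there through MDA-MB-231 alone, so keeping those calls is a description and no sign of firmness. No value that was called reversed. The number of members called against DMSO under abemaciclib in MDA-MB-231 went from 5 to 3 with a minimum change of 1.2-fold and ran from 3 to 6 with single libraries left out (3 without replicate 1 or 3 of DMSO). Under the combination it went from 7 to 4 with the minimum change. For the combination against abemaciclib in MDA-MB-231 it was 3 with DESeq2, which added CCN1 and AXL, 0 with the minimum change, and 0 to 2 with libraries left out (2 without replicate 1 of fulvestrant). For the interaction in MDA-MB-231 it was 2 with DESeq2, which added AXL, and 0 with the minimum change. In MDA-MB-453, leaving libraries out gave 1 to 3 members for abemaciclib and 1 to 2 for the combination against DMSO, and 0 to 1 for the combination against abemaciclib and for the interaction, the upper counts coming without replicate 3 of abemaciclib except for the combination against DMSO. With the replicate block, 4 members were called for abemaciclib in MDA-MB-231 (CRIM1 was lost) and the counts of the other 14 comparisons did not change. TEAD4 between the untreated lines turned to -0.07 under the replicate block and was not called. Values near 0 that were not called crossed 0 with libraries left out. Their ranges were -0.08 to 0.01 for AXL, -0.13 to 0.00 for STK4, -0.03 to 0.17 for VCL and -0.15 to 0.02 for TPM1 under abemaciclib in MDA-MB-231. They were -0.45 to 0.14 for CRIM1 and -0.09 to 0.33 for FRMD6 under abemaciclib, and -0.07 to 0.12 for AMOTL2 and -0.38 to 0.38 for LATS2 under the combination, in MDA-MB-453. Between the untreated lines YAP1 ran from -0.22 to 0.01. For differences between lines they were -0.88 to 0.14 for AJUBA and -0.24 to 0.34 for CRIM1 under abemaciclib, and -0.08 to 0.64 for LATS2 under the combination. Without mitochondrial genes the median of all genes in the abemaciclib difference between lines moved from -0.07 to -0.14. Where not shown by the alternative itself, the cause was not tested. At these depths CCN2 and TEAD1 fell below the low-count filter within MDA-MB-453, and without that filter neither was called in its 6 comparisons.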
